A study of Mus musculus with 6 samples.

Results

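The genes described here are 9 Polycomb subunits and Asxl1: Ezh1, Ezh2, Eed, Suz12, Bmi1, Rnf2, Ring1, Cbx7, Cbx8 and Asxl1. They were chosen by name as repressors of the HOX clusters that oppose MLL, a rule that uses no measured value. Earlier results of these data were known when they were chosen. All 10 were found among the 46983 genes of the count tables, and all 10 had enough reads to be tested. Bone marrow was depleted of mature, lineage-marked cells, the remaining progenitors were grown into myeloid colonies in semi-solid methylcellulose containing mSCF (stem cell factor), IL-3 and IL-6, and messenger RNA was sequenced from colonies harvested after 6 to 7 days. The 6 libraries form 2 groups of 3. The WT group is labelled wild type, and the series design names its genotype PsipFl/Fl. The KO group is labelled Psip1-KO, and the design names its genotype PsipVav/Vav, without saying which cells lose the gene or how completely. All mice were C57BL/6, and their age is given as 8 to 11 weeks in the sample labels and 8 to 10 weeks in the culture protocol. Psip1 encodes LEDGF, a chromatin reader through which MLL and menin are held at active genes, and the title sets its loss in normal blood formation against leukaemia with rearranged MLL.

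Polycomb proteins keep developmental genes silent, the HOX clusters foremost, where the MLL complex keeps them active. Polycomb repressive complex 2 (PRC2) methylates histone H3 on lysine 27. It is built from a catalytic subunit, Ezh2 or its paralog Ezh1, and the core proteins Eed and Suz12. Polycomb repressive complex 1 (PRC1) ubiquitinates histone H2A. Its catalytic core pairs Ring1 or Rnf2 with a PCGF protein such as Bmi1, and in its canonical form a CBX protein such as Cbx7 or Cbx8 reads the mark left by PRC2. Asxl1 is the partner of the deubiquitinase Bap1, which removes the PRC1 mark. In blood, Bmi1 is known for stem cell self-renewal, and EZH2 and ASXL1 are recurrently mutated in human myeloid disease.

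On GRCm38 (GENCODE M21), the PRC2 genes lie at chr11:101191115-101226463 (Ezh1, minus strand), chr6:47530139-47595341 (Ezh2, minus), chr7:89954654-89980983 (Eed, minus) and chr11:79993106-80034123 (Suz12, plus). The PRC1 genes lie at chr2:18677018-18686629 (Bmi1, plus), chr1:151458004-151500955 (Rnf2, minus), chr17:34020792-34024680 (Ring1, minus), chr15:79915807-79971119 (Cbx7, minus) and chr11:119036305-119040969 (Cbx8, minus), and Asxl1 lies at chr2:153345829-153404007 (plus). Values are read counts over exons. Exons of 6 of the genes overlap a gene on the opposite strand, by at most 6.82% of exon length (Eed), and the counts used keep the strands apart.

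Start-site sequence is shown for the 3 genes that hold a match to an E2F-type motif, the element through which dividing cells switch on many genes of DNA replication. The match did not sort the genes by their pattern across libraries, described below: Ezh2 and Suz12 ran alike, Ezh1, with no match, ran as close to both, and Asxl1 ran apart. RefSeq windows (GRCm38.p6) of 300 bases, 250 before and 50 after a start site, were found for all 10 genes. They were searched for TTTNNCGC on both strands, and the printed stretch ends 15 bases after the start site, with the match in capitals. Build and strand are given with each name.
Ezh2 (chr6:47595016-47595280, minus strand): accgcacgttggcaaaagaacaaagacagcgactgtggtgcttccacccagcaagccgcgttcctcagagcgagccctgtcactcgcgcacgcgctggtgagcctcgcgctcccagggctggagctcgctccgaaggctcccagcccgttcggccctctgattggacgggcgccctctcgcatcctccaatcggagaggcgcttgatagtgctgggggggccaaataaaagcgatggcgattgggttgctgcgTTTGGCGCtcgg
Suz12 (chr11:79992856-79993120, plus strand): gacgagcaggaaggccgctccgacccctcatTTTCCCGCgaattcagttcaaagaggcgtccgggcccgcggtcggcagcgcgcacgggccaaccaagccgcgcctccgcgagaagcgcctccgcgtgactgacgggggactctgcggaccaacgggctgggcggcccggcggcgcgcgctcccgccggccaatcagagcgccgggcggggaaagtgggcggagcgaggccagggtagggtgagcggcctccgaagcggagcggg
Asxl1 (chr2:153345580-153345844, plus strand): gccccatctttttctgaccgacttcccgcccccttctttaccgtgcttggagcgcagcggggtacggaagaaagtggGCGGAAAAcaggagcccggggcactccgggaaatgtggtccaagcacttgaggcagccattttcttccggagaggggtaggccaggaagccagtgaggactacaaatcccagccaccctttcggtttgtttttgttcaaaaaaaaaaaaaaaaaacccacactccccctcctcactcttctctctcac
The match begins 3 bases into the RefSeq Ezh2 transcript, 219 bases before the Suz12 start site and 173 bases before that of Asxl1. Of all 32851 windows of this length 5.17% hold the motif. The CCAAT box (CCAAT, either strand) was found in the windows of 5 of the 10 genes (Ezh2, Eed, Suz12, Cbx7 and Cbx8), against 37.4% of all windows. The GC box (GGGCGG, either strand) was found in 7 of 10, against 35.7% of all windows. The E-box (CACGTG, a palindrome) was found in 2 of 10, Bmi1 and Cbx8, against 7.15% of all windows. None of these motifs contains another. Positions are counted from the RefSeq start, which for Ezh2, Cbx7, Cbx8, Eed and Asxl1 lies inside the GENCODE gene and for Rnf2 just outside it. The 10 windows held 13 to 41 CpG dinucleotides, where the median of all windows is 7.0. A match is a description of the sequence and not a bound site.

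Depth set the limits of the comparison. The 5 deep libraries held 7056614 to 15569088 reads on genes, and WT replicate 3 held 27909 over its 2 sequencing runs. Levels are normalised CPM, which are reads scaled to a common library size with TMM factors. At the depth of WT replicate 3 a single read made 29.9 CPM, and a gene with 0 reads there could stand as high as 89.6 CPM (3 reads). Its 8 reads on the 10 genes are therefore given as reads, and it is left out of every per-library comparison. Mitochondrial genes took 15.74% of gene reads in KO replicate 2 and 1.26% to 1.84% in the other deep libraries. Binomial intervals and this limit hold counting error alone. Separate animals for the libraries within a group are not stated, so p-values measure only the spread between these libraries, which may be technical. Primary granule, mast cell and macrophage markers, each list summed, had reads in every library. Of the single markers, Fcer1a and C1qa had 0 reads in WT replicate 3. The targeted gene, Psip1, had 3 reads in WT replicate 3, and its level was 89.3 and 70.0 CPM in the remaining WT libraries. Its KO levels were 14.8, 17.6 and 16.3 CPM (log2 fold change -2.32, SE 0.32, edgeR quasi-likelihood adjusted p = 0.0599). The labels and the Psip1 level went together in the deep libraries, although the difference missed the threshold of 0.05.

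None of the 10 genes differed between the genotypes past an adjusted p of 0.05 by edgeR's quasi-likelihood test. The same test called 0% of the 12292 genes tested. At an unadjusted p under 0.05, 0 of the 10 genes passed in edgeR, DESeq2 and limma-voom, where the edgeR background was 1.24% higher and 0.212% lower in KO. The fitted log2 fold changes ran from -0.50 (Cbx8) to 0.67 (Cbx7), with 6 negative and 4 positive values. Their median was -0.11, beside 0.01 over all tested genes, of which 48.0% were negative. Each adjusted p was 1.00, and the 95% intervals reached from -1.63 to 1.88. Over the deep libraries alone, the groups did not overlap for 1 of the 10 genes, Asxl1, which lay higher in KO. Of all tested genes 4.79% did so in that direction, and 3.87% in the other. In bulk RNA, fewer cells of a type and less RNA per cell cannot be told apart.

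**Figure D1:**
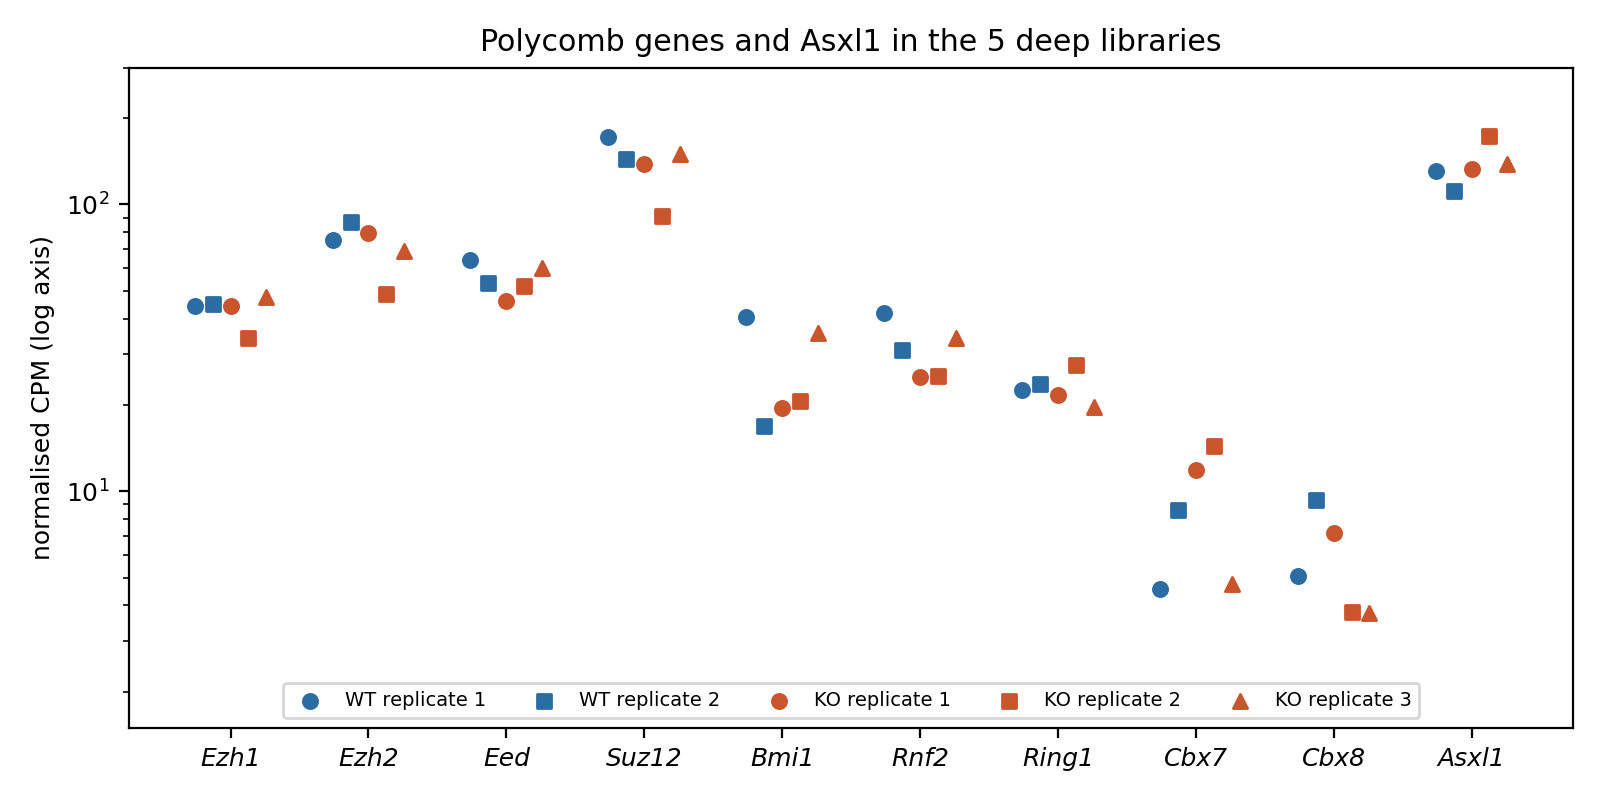
Normalised CPM (log axis) of each gene in the 5 deep libraries, WT in blue and KO in orange, 1 point per library. WT replicate 3 is not drawn. The WT and KO points interleave for all genes except Asxl1, whose lowest KO point (133.0 CPM) lies just above its highest WT point (131.1 CPM).

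Within PRC2, neither catalytic subunit differed beyond its error. Ezh2, the main methyltransferase of dividing cells, had 2 reads in WT replicate 3 and stood at 75.3 and 86.8 CPM in deep WT. The KO levels were 79.7, 48.9 and 68.9 CPM (mean 65.8 ± 15.6, SD, n = 3). KO replicate 1 lay between the WT values and KO replicate 2 was lowest. The log2 fold change was -0.26 (SE 0.33, 95% interval -0.99 to 0.46); the lower bound is a 1.98-fold fall. Without KO replicate 2 it was -0.09.

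Ezh1, the paralog that is typical of resting cells, was nearly level. It stood at 44.3 and 45.0 CPM in the deep WT libraries and at 44.4, 34.2 and 47.8 CPM in KO, with 0 reads in WT replicate 3. KO replicate 2 was again lowest, and the other 4 libraries spanned only 44.3 to 47.8 CPM. The log2 fold change was 0.01 (SE 0.38, 95% interval -0.82 to 0.84). Its sign turned with scaling by library size only (-0.02).

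Suz12 and Eed, the core subunits without which the PRC2 enzyme is inactive, differed in their pattern. Suz12 stood at 172.4 and 143.6 CPM in the deep WT libraries, with 2 reads in WT replicate 3, and at 138.4, 91.3 and 150.0 CPM in KO. KO replicate 2 was the lowest library here too, and KO replicate 3 lay between the WT values (log2 fold change -0.18, SE 0.37, 95% interval -0.99 to 0.64). Without KO replicate 2 the value was 0.02 and without WT replicate 1 it was 0.07, so its sign rested on either library. Eed, which binds the methyl mark, stood at 64.1 and 53.3 CPM in WT and at 46.3, 52.0 and 60.1 CPM in KO, with 0 reads in WT replicate 3. Its lowest library was KO replicate 1, not KO replicate 2 (log2 fold change -0.04, SE 0.38, 95% interval -0.88 to 0.80).

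Among PRC1 genes the 2 ubiquitin ligases showed small differences. Rnf2, which encodes RING1B, stood at 41.8 and 31.0 CPM in deep WT and at 25.1, 25.2 and 34.2 CPM in KO, with 0 reads in WT replicate 3. KO replicate 3 overlapped the WT libraries and the other KO libraries lay below both (log2 fold change -0.29, SE 0.39, 95% interval -1.14 to 0.57). Leaving out WT replicate 1 turned it to 0.04. Ring1, which encodes RING1A, was at 22.5 and 23.7 CPM in WT and at 21.6, 27.5 and 19.6 CPM in KO, with 0 reads in WT replicate 3. The KO libraries lay on both sides of WT, and KO replicate 2 was highest (0.05, SE 0.38, 95% interval -0.79 to 0.89).

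Bmi1, the PCGF subunit of canonical PRC1, split the libraries across genotype. It stood at 40.5 CPM in WT replicate 1 and 35.7 CPM in KO replicate 3, against 16.9 CPM in WT replicate 2 and 19.5 and 20.6 CPM in KO replicates 1 and 2. WT replicate 3 had 1 read. The log2 fold change was -0.19 (SE 0.44, 95% interval -1.15 to 0.78). It was 0.57 without WT replicate 1 and -0.62 without WT replicate 2, so 1 library set its direction. The same 2 libraries had the highest summed level of 4 macrophage markers, 1306 and 1424 CPM, where the other deep libraries had 481.2 to 826.7 CPM. Of the markers, Csf1r and Adgre1 were highest in these 2 libraries. Cd68 was higher in KO replicate 2 (486.5 CPM) than in WT replicate 1 (453.1 CPM), and C1qa was highest in WT replicate 2 (9.60 CPM) and lowest in KO replicate 3 (0.792 CPM). Kit was also highest in these 2 libraries (246.4 and 250.5 CPM, against 102.4 to 112.3 CPM), but the summed mast cell markers were highest in KO replicate 2 (4732 CPM). The erythroid sum was lowest in them (6.17 and 4.09 CPM). So was the primary granule sum (1779 and 1471 CPM), with KO replicate 2 close at 1858 CPM. The same libraries had the lowest shares of multimapping reads (14.4% and 15.0%, against 17.7% to 27.0%). The part of any of these in the Bmi1 level was not tested.

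The CBX readers were the scarcest and most variable of the genes. Cbx7 reads numbered 63, 88 and 0 in WT replicates 1, 2 and 3, and the KO libraries had 151, 91 and 72. This made 4.57 and 8.62 CPM in WT and 11.9, 14.4 and 4.75 CPM in KO. KO replicates 1 and 2 lay above both WT libraries and KO replicate 3 did not. The log2 fold change was 0.67 (SE 0.55, 95% interval -0.53 to 1.88, unadjusted p = 0.243 and adjusted p = 1.00 by edgeR). It kept its sign in all 17 alternatives, from 0.33 to 1.21. Without WT replicate 2 it was 1.21, without KO replicate 3 it was 1.06 and without KO replicate 2 it was 0.37, so its size rested on single libraries.

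Cbx8, which is known to bind MLL fusion partners, ran differently. Its reads numbered 70, 95 and 0 in WT and 91, 24 and 57 in KO, and its deep levels were 5.08 and 9.30 CPM in WT and 7.16, 3.80 and 3.76 CPM in KO. KO replicate 1 lay within the WT range and the other KO libraries below it (log2 fold change -0.50, SE 0.52, 95% interval -1.63 to 0.63). Without WT replicate 2 the value was 0.01.

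Asxl1, the Bap1 partner, was the gene with separate groups among the deep libraries. Its level was 131.1 and 111.5 CPM in the deep WT libraries, and WT replicate 3 had 3 reads. In KO it stood at 133.0, 173.4 and 138.4 CPM (mean 148.3 ± 21.9, SD, n = 3). KO replicate 1 exceeded WT replicate 1 by less than 2 CPM, and KO replicate 2 was highest. The log2 fold change was 0.34 (SE 0.33, 95% interval -0.37 to 1.05, unadjusted p = 0.317 and adjusted p = 1.00 by edgeR). It was positive in all 17 alternatives, from 0.16 without WT replicate 3 and KO replicate 2 to 0.52 without WT replicate 1.

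**Figure D2:**
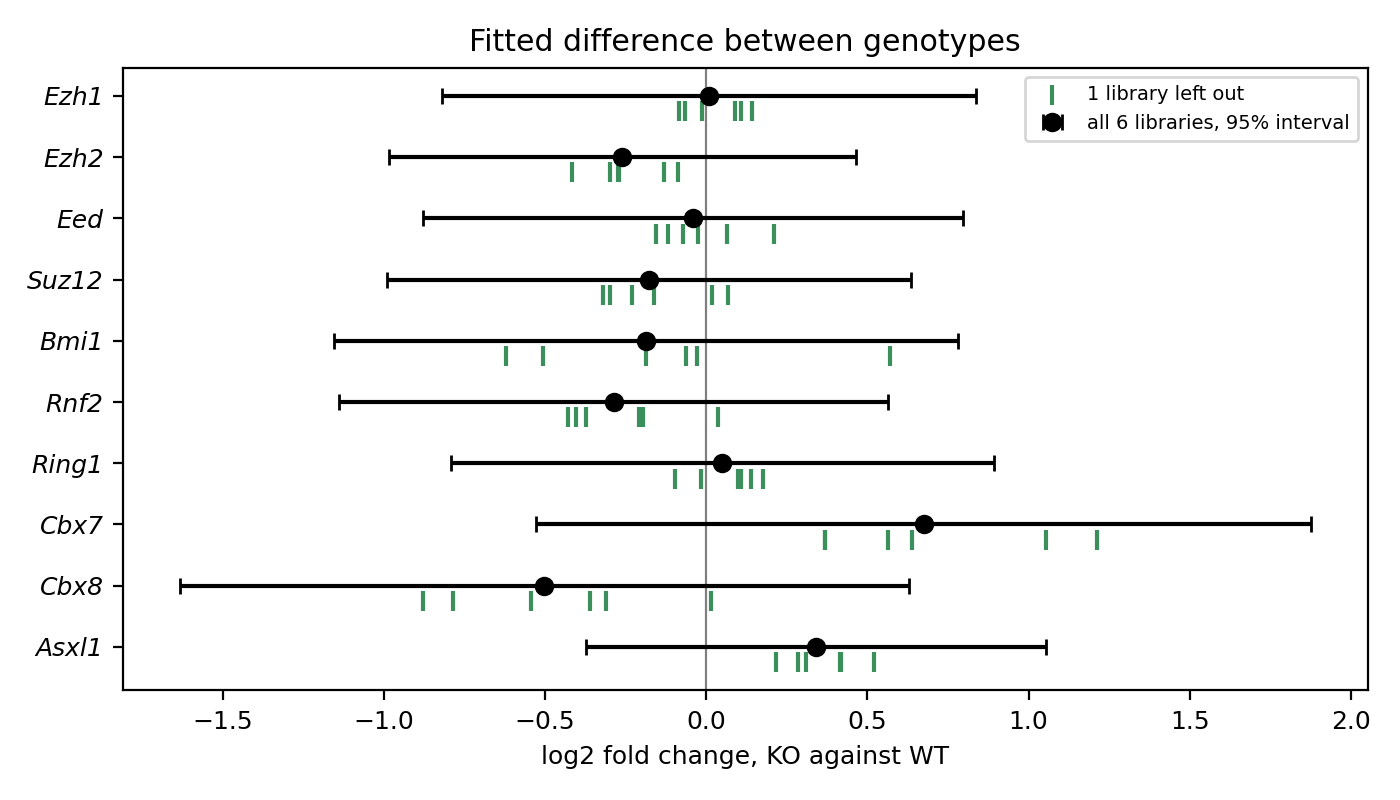
Fitted log2 fold change of KO against WT (horizontal axis) for each gene. Black points with bars are the fit over all 6 libraries with its 95% interval, and green ticks are the fits with 1 library left out. Every interval spans 0, and the ticks of Bmi1 reach from -0.62 to 0.57.

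Levels can be compared between genes only per length, here as normalised CPM per kilobase of merged exons, which include exons of rare isoforms. The median level over the 5 deep libraries was highest for Suz12 at 29.0 CPM per kilobase, followed by Asxl1 at 17.9, Eed at 13.9 and Ezh2 at 11.3. Suz12 exceeded Asxl1 in 4 of 5 libraries, KO replicate 2 being the exception, so their ranges overlapped, while Asxl1 exceeded Eed and Eed exceeded Ezh2 in 5 of 5. Below them Ezh2 exceeded Rnf2 (median 7.52) in 5 of 5. Rnf2, Ring1 (6.94), Ezh1 (5.96) and Bmi1 (5.18) followed in that order of medians, and each exceeded the next in 3, 4 and 2 of 5 libraries, with overlapping ranges. Cbx8 and Cbx7 were at the bottom with 1.38 and 1.33 CPM per kilobase. Bmi1 exceeded Cbx8 in 5 of 5 libraries. The level of Suz12 stood above that of 85.2% of all tested genes, and that of Cbx7 above 17.3%.

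**Figure D3:**
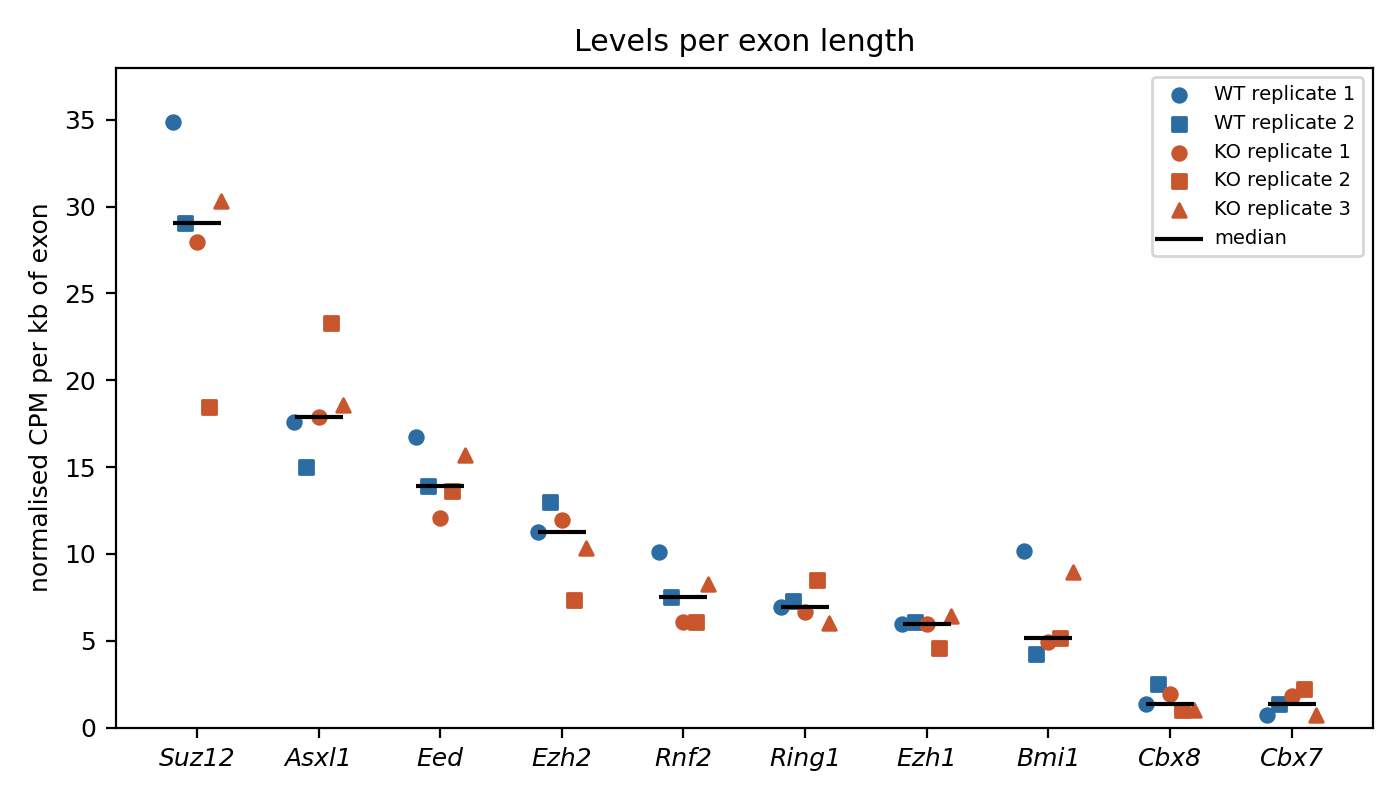
Level of each gene in normalised CPM per kilobase of merged exons (vertical axis, from 0), in the order of the medians (black lines), with 1 point for each of the 5 deep libraries, WT in blue and KO in orange. Suz12 spans 18.5 to 34.9 and lies above Asxl1 in all libraries but KO replicate 2.

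Paralogs that fill the same position in a complex were set against each other within each library, where scaling cannot move the result. Per exon length, the Ezh1 to Ezh2 ratio was 0.53 and 0.47 for deep WT and 0.50, 0.63 and 0.62 for KO. Ezh2 was thus the more abundant transcript in each deep library, and the groups overlapped. The Ring1 to Rnf2 ratio was 0.68 and 0.97 in WT and 1.10, 1.39 and 0.73 in KO, again overlapping. The Cbx7 to Cbx8 ratio was 0.51 and 0.52 in WT and 0.94, 2.15 and 0.72 in KO, so of the 3 ratios this one separated the deep groups. How often ratios of other gene pairs separate these few libraries was not tested.

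As a share of the reads of both genes, Cbx7 made up 47.4% and 48.1% in WT replicates 1 and 2. It made up 62.4%, 79.1% and 55.8% in KO replicates 1, 2 and 3. The 95% Wilson interval of KO replicate 3 (47.2% to 64.1%) overlapped those of WT replicate 1 (39.1% to 55.8%) and WT replicate 2 (41.0% to 55.3%), while the interval of KO replicate 1 (56.1% to 68.3%) lay just above them. The difference is given as a description without a test, and WT replicate 3 had 0 reads of either gene. KO replicate 2, the library with 15.74% mitochondrial reads, held the highest share, on 115 reads.

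**Figure D4:**
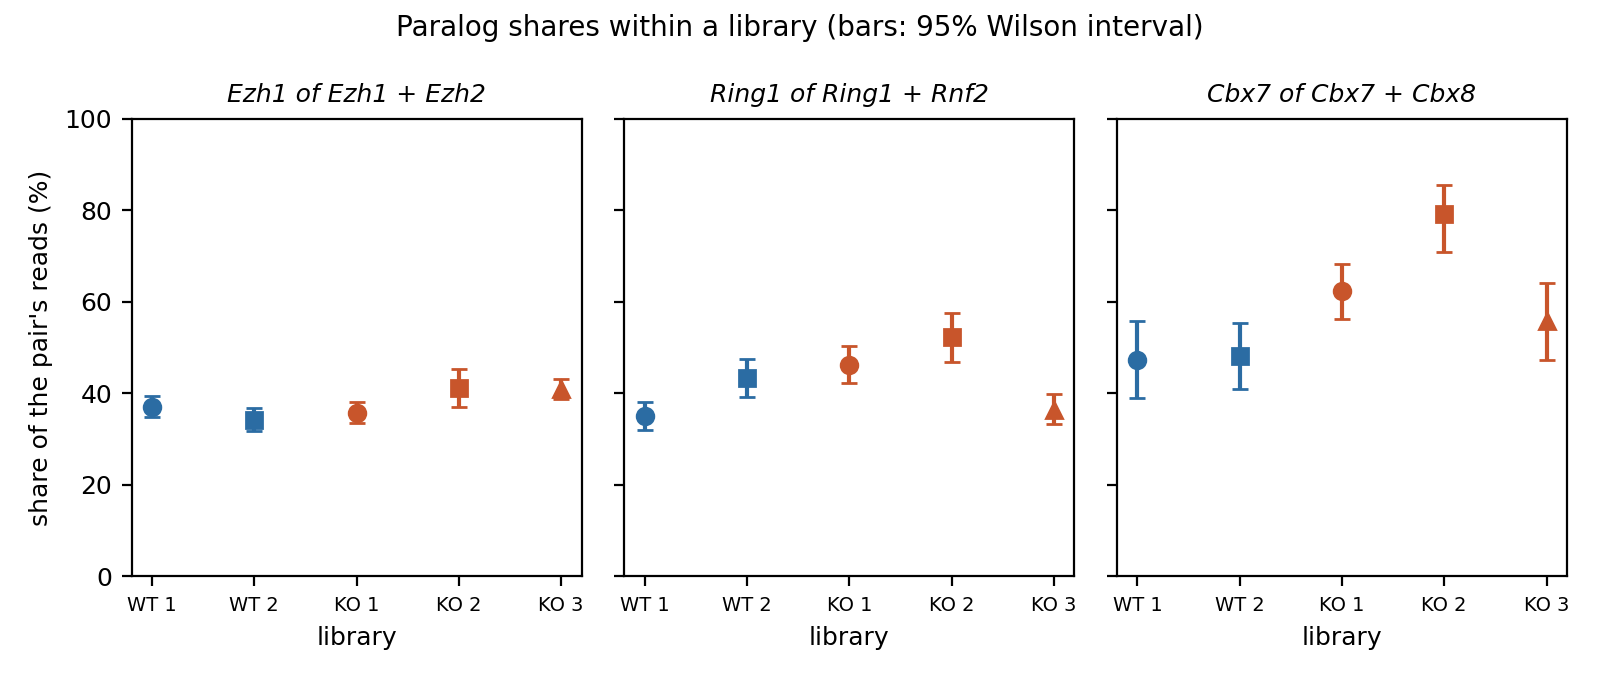
Share of Ezh1, Ring1 and Cbx7 among the reads of each paralog pair (vertical axis, percent), by deep library, WT in blue and KO in orange, with 95% Wilson intervals. In the right panel the WT libraries sit at 47.4% and 48.1% and the KO libraries at 55.8% to 79.1%, and in the other panels the groups overlap.

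Across libraries the genes fell into different patterns. The difference between the highest and the lowest deep library, on the scale of log2(CPM + 0.1), ran from 0.47 for Eed to 1.63 for Cbx7. KO replicate 2 was the lowest library for 3 genes (Ezh1, Ezh2 and Suz12) and the highest for 3 others (Ring1, Cbx7 and Asxl1). The root mean square difference between the centred log2 levels of Ezh2 and Suz12 was 0.18 over the 5 libraries, Ezh1 lay at 0.17 from each of them, and the difference between Eed and Rnf2 was the smallest of all pairs at 0.14. Markers of dividing cells (Mki67, Top2a, Ccnb1, Mcm5 and Pcna) summed to 1313 CPM in KO replicate 2 and to 1931 to 2181 CPM in the other deep libraries. Mki67, Top2a, Ccnb1 and Mcm5 were each lowest in KO replicate 2. Pcna was lowest in WT replicate 1 (103.9 CPM, against 108.7 CPM in KO replicate 2). Ezh1, Ezh2 and Suz12 thus had their lowest level in the library with the lowest sum of these markers. Of these, Ezh2 and Suz12 hold an E2F-type match and Ezh1 does not, and Asxl1, which holds one, had its highest level there. The part of cell division or of the mitochondrial share in these levels was not tested.

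**Figure D5:**
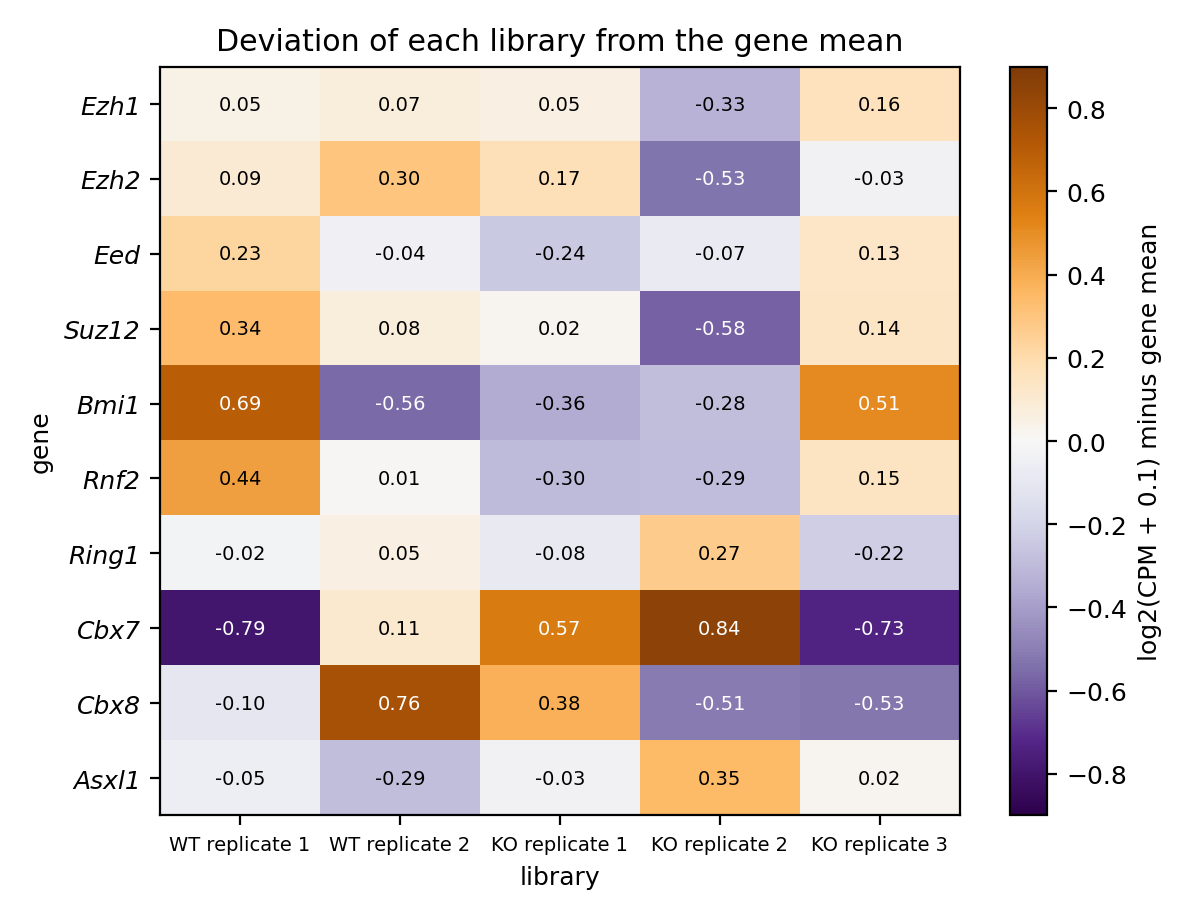
Deviation of each deep library (columns) from the mean of each gene (rows) on the scale of log2(CPM + 0.1), with purple below and orange above the mean. In KO replicate 2 Ezh2 and Suz12 stand at -0.53 and -0.58 and Cbx7 at 0.84, while Bmi1 is high in WT replicate 1 and KO replicate 3 (0.69 and 0.51).

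For the 3 genes of widest range, the genes of most similar pattern were sought among 9047 genes with a mean of at least 10 CPM. Likeness was the root mean square difference of the centred log2 levels over the same 5 libraries, given without a test. Closest to Cbx7 were Rps19, a ribosomal protein gene (0.039), B3gnt7 (0.074) and the metalloprotease gene Mmp19 (0.091). Rps19 belongs to a family with many processed pseudogenes, so its count is uncertain. Closest to Cbx8 were Cdkn2d, which encodes the CDK inhibitor p19INK4d (0.059), Hmgn5 (0.076) and Mfsd13a (0.084). Closest to Bmi1 were the splicing regulator gene Mbnl2 (0.020), Azin1, which encodes antizyme inhibitor (0.027), and Vcpip1 (0.031). Mbnl2, for example, stood at 118.3 and 104.4 CPM in WT replicate 1 and KO replicate 3 and at 49.1 to 60.9 CPM in the other deep libraries.

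The other genes of the Polycomb system showed as little difference. Of 46 further subunits, partners and erasers 44 were tested, 28 with a positive and 16 with a negative log2 fold change. Their median was 0.06 and 0 passed the threshold, with 0 at an unadjusted p under 0.05. Among 8 accessory PRC2 genes the lowest p belonged to Jarid2, which recruits the complex (log2 fold change -0.54, SE 0.40), and Phf1, which binds methylated lysine 36 of histone H3 (0.48, SE 0.45, and 0.02 without KO replicate 2). Jarid2 was at 84.8 and 77.4 CPM in the deep WT libraries and 77.0, 46.8 and 72.4 CPM in KO, and without WT replicate 3, where it had 7 reads, its value was -0.31, and without KO replicate 2 it was -0.36. The histone chaperone gene Rbbp4 and Jarid2 were the 2 of 44 genes whose deep libraries did not overlap, both lower in KO, where 3.87% of all tested genes did so in that direction. Rbbp4, named after its values were seen, was at 310.8 and 366.2 CPM in WT and 253.1, 186.2 and 301.1 CPM in KO (-0.33, SE 0.35), and its value was -0.14 without WT replicate 2 and -0.16 without KO replicate 2.

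Of the other canonical PRC1 genes 9 of 10 were tested. Pcgf2, the paralog of Bmi1, had the lowest p among them, at 6.39 and 14.7 CPM in the deep WT libraries and 20.2, 22.8 and 10.2 CPM in KO (0.79, SE 0.50). Without WT replicate 1 its value was 0.40, and without WT replicate 2 it was 1.52. It was high where Cbx7 was high and low in WT replicate 1 and KO replicate 3, where Bmi1 was high. Scmh1 was at -0.28 (SE 0.41) and at 0.18 without WT replicate 2. In variant PRC1 all 14 genes were tested, led by Auts2 (0.81, SE 0.67) and Pcgf6 (0.47, SE 0.47). With 1 library left out in turn, Auts2 ran from 0.14 to 2.48 and Pcgf6 from 0.18 to 0.74. Among the partners of Asxl1 and Bap1, 9 of 10 were tested, and Ogt, the O-GlcNAc transferase (0.46, SE 0.35), and Mbd6 (0.36, SE 0.34) had the lowest p. Without KO replicate 2 they were at 0.18 and 0.21. Ogt, like Asxl1, was highest in KO replicate 2 (464.6 CPM, against 218.2 to 299.5 in the other deep libraries). The 4 erasers ended between -0.22 (SE 0.34) for Kdm6a, a demethylase of lysine 27, and 0.23 for Mysm1, a deubiquitinase of H2A, with Kdm6b at 0.21 (SE 0.32). With 1 library left out in turn, Kdm6a ran from -0.39 to -0.038, Kdm6b from 0.11 to 0.47 and Mysm1 from -0.12 to 0.90.

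The HOX clusters, the classic Polycomb targets, were almost silent in both genotypes. Of 39 HOX genes 23 had 0 reads in every library, 34 stayed under 10 reads in every library and 2 could be tested. The 9 Hoxd genes had 0 reads and the 9 Hoxc genes 1 read in all. The 10 Hoxb genes summed to 89 and 152 reads in WT replicates 1 and 2 and to 126, 51 and 75 reads in KO, and the 11 Hoxa genes to 58 and 90 reads against 19, 9 and 14. In CPM the Hoxa sum was 4.21 and 8.81 in WT and 1.49, 1.42 and 0.924 in KO, whereas the Hoxb sums of the groups overlapped (6.46 and 14.9 in WT, 9.91, 8.07 and 4.95 in KO). WT replicate 3 had 0 HOX reads. Hoxb4 carried most of the Hoxb reads (72 and 133 in WT, 111, 44 and 64 in KO) and was at -0.41 (SE 0.53), and Hoxb3 was at -1.07 (SE 0.68). Leaving out WT replicate 2 turned Hoxb4 to 0.40 and leaving out WT replicate 1 gave -0.83, so 1 library set its direction. Hoxb3 was at -0.55 without KO replicate 3. Hoxa9, named because alternatives called it, had 22 and 53 reads in WT and 2, 0 and 0 in KO. The filter of the main test left Hoxa9 out, while Hoxb3, with 17 and 18 reads in WT and 13, 6 and 3 in KO, passed. That filter asks for enough reads in at least as many libraries as a group holds. A gene read in the deep WT libraries alone, with 0 reads in WT replicate 3, could therefore not be tested.

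Among 18 other genes that Polycomb silences in many tissues, chosen as cell cycle inhibitors and developmental regulators, 12 had 0 reads in every library and 3 were tested. Cdkn2a, which encodes the tumour suppressors p16INK4a and ARF and is the best known PRC1 target outside HOX, stood at 8.93 and 11.6 CPM in the deep WT libraries and 13.3, 77.5 and 17.9 CPM in KO. The KO libraries lay above WT, mostly through KO replicate 2 (log2 fold change 1.84, SE 0.69, unadjusted p = 0.0213 and adjusted p = 1.00 by edgeR). Without KO replicate 2 it was 0.65 (unadjusted p = 0.200 by edgeR).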

How the data were processed

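The authors deposited read counts per gene with the layout of STAR's gene counter, 1 file per sequencing run. Per the submitters' processing notes the tools were STAR 2.5.1b and DESeq2 and the build GRCm38. Which annotation release was counted is not stated there. Libraries were TruSeq Stranded mRNA, per the labels' protocols, so column 4, the count on the opposite strand, was used. It held 95.6% to 97.5% of stranded gene reads. Rows that name no gene (25.6% to 47.8% of reads) were left out. Symbols and exon lengths came from GENCODE M21 (46488 of 46983 identifiers matched). Both runs of WT replicate 3 were summed.

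The test was edgeR 4.0.16's quasi-likelihood F test (robust glmQLFit, glmQLFTest) after TMM scaling and a filterByExpr filter, genotype as the only term, all 6 libraries, Benjamini-Hochberg adjustment over 12292 genes, threshold 0.05. SE is the log2 fold change over the root of F, and 95% intervals use the fit's degrees of freedom. The procedure was tested on simulated data. Genes and lists were chosen with earlier results of these data known. Named genes are the 10 members, the 2 of lowest p per list and the 3 nearest patterns of the 3 widest-ranging members. Tried as alternatives were DESeq2 1.42.0, limma-voom (limma 3.58.1), other scalings and filters, strand, runs, the replicate block, left-out libraries and the threshold. Leaving out WT replicate 3 and KO replicate 2 together was chosen after seeing the data. Some tested or marker genes are not reported here.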

Additional observations from a re-analysis of the deposited data

How the results depend on the processing

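None of the 10 genes was called in any of 18 alternatives, and Ezh2, Cbx7 and Asxl1 kept their sign in all that were fitted. Other signs turned. Ezh1 was at -0.019 when scaled by library size alone, -0.051 with limma-voom and -0.095 with DESeq2 and WT replicate 3 left out. Eed was at 0.060 with DESeq2 and 0.013 with the replicate block. Ring1 was at -0.033 with limma-voom, -0.034 with DESeq2 and WT replicate 3 left out, and -0.17 without WT replicate 3 and KO replicate 2. With 1 library left out in turn, Ezh1 ranged from -0.086 to 0.14, Eed from -0.15 to 0.21, Suz12 from -0.32 to 0.066, Bmi1 from -0.62 to 0.57, Rnf2 from -0.43 to 0.037, Ring1 from -0.10 to 0.18 and Cbx8 from -0.88 to 0.013. The cause was not tested. The median of all genes moved from 0.01 to -0.32 with DESeq2, which tests 22237 genes, and to 0.13 without WT replicate 1.

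Over all genes edgeR called 0, against 2 when scaled by library size alone, 9 without a filter, 1 with DESeq2, 12 with DESeq2 without WT replicate 3, 4 at a threshold of 0.10 and 0 to 5 with 1 library left out. Of the other Polycomb lists 1 gene, Hoxa9, was called lower without a filter (adjusted p = 0.00425) and with DESeq2 without WT replicate 3 (adjusted p = 0.0422). Psip1 was past the threshold without a filter (-2.28), with the replicate block (-2.33) and with DESeq2 without WT replicate 3 (-2.32). Correlations of same-numbered deviations from the group means over 9063 genes were -0.34, -0.07 and -0.23. The highest correlation was 0.51, between WT replicate 1 and KO replicate 3. The WT means include the shallow WT replicate 3, so these values cannot settle whether the replicate numbers pair the samples. With the replicate block 13 genes were called over all genes, none of the 10 among them. WT replicate 3 limits what can be seen, since at the deep WT means it would hold 0.221 (Cbx7) to 5.29 (Suz12) reads of each gene.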
